A study of Mus musculus with 12 samples.

Results

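The genes described here encode the cornified envelope of the epidermis and the enzymes that build it and later shed it. They were taken from a list of 48 genes: members of the epidermal differentiation complex, transglutaminases, kallikreins and other late differentiation genes. All 48 were found among the 54232 gene identifiers of each count table by matching Ensembl identifiers to symbols of the GENCODE M21 annotation. Sprr3, a small proline-rich protein, summed to 13 counts over all libraries, under the minimum of 15, and was left out, so 47 genes are described, out of 18618 genes tested. All 47 passed the filter on low counts.

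The tissue was dorsal wound skin of male C57BLKS/J mice that were homozygous for the db mutation of the leptin receptor, Lepr (db/db), which makes mice obese and diabetic; every group carried this genotype, and no wild-type mice were included. Full-thickness wounds of 6 mm were punched at 12 weeks of age and collected on day 10, and the samples are labelled 12.5 weeks. The 5 TD wounds were covered by Tegaderm, a transparent film dressing, alone. Under a patch meant to induce about 30% strain were 4 wounds, called Strain, and 3 wounds, called No Strain, had a patch meant to induce none. The labels do not say whether wounds came from separate mice, so p-values measure the spread between these samples. Sample titles carry numbers up to 6 for TD and between 7 and 15 for wounds with a patch; their meaning is not given, and if they mark an order, order and patch cannot be told apart. The titles end in L or R, which the labels do not explain. These letters are unevenly spread. R stands on 4 of 5 TD libraries and L on 5 of 7 patch libraries.

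As keratinocytes leave the basal layer and flatten, they replace their plasma membrane by an insoluble shell, the cornified envelope. Involucrin and other scaffold proteins are laid down first, loricrin, small proline-rich proteins (SPRR) and late cornified envelope proteins (LCE) are then cross-linked onto them by transglutaminases, and proteins of the filaggrin family bundle the keratin inside. Corneodesmosomes hold the dead cells together until kallikreins cut them, a process called desquamation that the inhibitor encoded by Spink5 restrains. Loricrin and the LCE1 group are known from intact epidermis, whereas SPRR2 and LCE3 genes are known to be expressed where the barrier is injured or inflamed.

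Promoter sequences are shown for 6 genes on which the results below turn. These sequences belong to a pair of SPRR2 genes, an LCE3 gene and a nearby LCE1 gene, a transglutaminase gene and Sbsn. Each runs 5′ to 3′ from 250 bases before the gene's start to 50 bases after it, from RefSeq on GRCm38.p6, in lower case, with capitals for letters that match TGANTCA (the AP-1 motif) or TATAAA (the TATA box), searched on both strands. The intervals are chr3:92364937-92365236 (plus strand) for Sprr2f, chr3:92385435-92385734 (plus strand) for Sprr2h, chr3:92966811-92967110 (plus strand) for Lce3e, chr3:93019012-93019311 (minus strand) for Lce1m, chr2:130012090-130012389 (plus strand) for Tgm3 and chr7:30751221-30751520 (plus strand) for Sbsn.
Sprr2f: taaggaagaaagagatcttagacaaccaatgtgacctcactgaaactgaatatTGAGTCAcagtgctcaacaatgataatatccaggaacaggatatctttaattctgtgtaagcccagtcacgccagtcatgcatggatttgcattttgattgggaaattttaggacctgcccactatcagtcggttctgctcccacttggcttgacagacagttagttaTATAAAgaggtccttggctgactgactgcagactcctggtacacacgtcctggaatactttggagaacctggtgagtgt
Sprr2h: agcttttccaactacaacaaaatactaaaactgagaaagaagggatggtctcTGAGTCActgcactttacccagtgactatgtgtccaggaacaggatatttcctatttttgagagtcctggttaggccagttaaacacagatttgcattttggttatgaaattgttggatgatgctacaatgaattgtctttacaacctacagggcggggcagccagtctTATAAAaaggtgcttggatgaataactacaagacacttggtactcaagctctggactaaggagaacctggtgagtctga
Lce3e: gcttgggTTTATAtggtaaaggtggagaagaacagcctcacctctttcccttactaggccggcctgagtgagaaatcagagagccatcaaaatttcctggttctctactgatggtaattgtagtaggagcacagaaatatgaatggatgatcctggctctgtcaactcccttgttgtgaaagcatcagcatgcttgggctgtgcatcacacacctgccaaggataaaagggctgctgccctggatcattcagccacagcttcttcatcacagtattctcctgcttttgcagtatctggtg
Lce1m: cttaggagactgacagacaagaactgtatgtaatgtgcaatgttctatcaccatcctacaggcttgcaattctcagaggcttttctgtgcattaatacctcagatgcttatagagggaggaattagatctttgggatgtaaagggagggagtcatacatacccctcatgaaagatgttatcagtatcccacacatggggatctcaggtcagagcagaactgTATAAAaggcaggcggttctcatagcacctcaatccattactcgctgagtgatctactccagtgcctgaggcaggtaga
Tgm3: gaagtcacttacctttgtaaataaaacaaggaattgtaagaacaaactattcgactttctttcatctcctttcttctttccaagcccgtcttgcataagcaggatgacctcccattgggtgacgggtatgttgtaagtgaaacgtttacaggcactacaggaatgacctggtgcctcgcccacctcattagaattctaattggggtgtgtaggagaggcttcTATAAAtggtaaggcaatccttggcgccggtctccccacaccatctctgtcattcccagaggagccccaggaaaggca
Sbsn: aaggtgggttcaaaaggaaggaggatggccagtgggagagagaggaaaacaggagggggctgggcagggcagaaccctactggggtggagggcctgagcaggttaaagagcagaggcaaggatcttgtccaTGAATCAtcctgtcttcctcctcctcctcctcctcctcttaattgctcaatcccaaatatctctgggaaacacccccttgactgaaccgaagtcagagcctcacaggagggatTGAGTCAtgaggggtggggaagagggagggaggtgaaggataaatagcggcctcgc

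In Sprr2f and Sprr2h the AP-1 match began 197 and 198 bases before the start and the TATA box 29 bases before it in both, and both promoters were identical at 192 of 323 aligned positions, or 59.4%. Lce3e held only a match to the TATAAA letters 243 bases before the start, on the opposite strand. Lce1m held a TATA box 29 bases before the start. The promoters of Lce3e and Lce1m were identical at 47.5% of aligned positions, where Lce3e and Lce3c (not shown) were identical at 78.1%. The identity of unrelated promoters in such an alignment was not measured. Tgm3 held a TATA box at 28 bases, and Sbsn held AP-1 matches that began 119 and 6 bases before the start. Over all 48 listed genes, 43 had a promoter in the RefSeq table (the others were Dsc1, Dsg1a, Kprp, Lce1f and Spink5). AP-1 letters were found in 14 of the 43, or 32.6%, against 8.97% of the 27025 genes with a promoter of the same length. A gene with several promoters was counted if any of them matched. The 14 were Lor, Ivl, Flg, Flg2, Rptn, Tchhl1, Sbsn, Dmkn, Krtdap, Sprr1a, Sprr1b, Sprr2d, Sprr2f and Sprr2h. TATAAA letters were found in 16 of the 43, or 37.2%, against 15.7% of the 27025 genes. Letters matching TTCNNNGAA, the STAT motif, were found in 4 of the 43, or 9.30%, against 9.55%. These are matches of letters and were not tested as binding sites.

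Each library held between 20354677 and 25059371 counts assigned to genes. Levels are given as CPM, counts scaled to a common library total with the TMM method, a share of the library's messenger RNA, so a 0 allows at most 0.147 CPM (3 counts, counting error only). In bulk tissue, fewer cells of a type and less RNA per cell cannot be told apart. The genes described took 0.274% (No Strain 3) to 0.801% (TD 3) of a library's counts. Replicates differed by more than counting noise in all 19 pairs within groups. The labelled tissue was checked by its markers, and all 9 basal, 6 suprabasal and 6 wound-activated keratinocyte markers passed the filter, with summed levels of 4781 to 11430.0, 2165 to 9761 and 2592 to 10863 CPM. Hair markers were low, with 5 of 7 inner root sheath and 3 of 9 hair shaft markers past the filter.

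Across the whole set, the wounds with a patch differed from TD wounds in a few genes. None of the set passed the test between wounds with and without strain. Changes are log2 fold changes from edgeR's quasi-likelihood test, called at an adjusted p under 0.05 over all genes tested. Between Strain and No Strain none of the 47 passed, against a background of 0% of all genes tested. In Strain against TD, 2 of 47 (4.26%) passed, Lce3e and Tgm3, both higher, against a background of 12.6% (6.2% higher and 6.41% lower). In No Strain against TD, 3 of 47 (6.38%) passed, Tgm1 and Tgm3 higher and Sbsn lower, against 17.8% (9.35% higher and 8.4% lower). These comparisons share the 5 TD libraries.

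When Strain and No Strain were averaged and set against TD, 8 of 47 (17.02%) passed, against a background of 24.4%. Sprr1b, Sprr2f, Sprr2h, Lce3c, Lce3e, Tgm1 and Tgm3 rose, 7 of 47 against 12.4% of all genes, and Sbsn fell, 1 of 47 against 12.1%. This balance of 7 higher to 1 lower changed with the tool and with single libraries. DESeq2 called 9 higher and 4 lower. Limma-voom with quality weights called 2 higher (Sprr1b and Tgm3) and 7 lower (Ivl, Kprp, Lce1m, Flg2, Tchhl1, Cdsn and Sbsn). EdgeR without No Strain 1 called Tgm3 higher and 5 lower (Ivl, Spink5, Cdsn, Sbsn and Dmkn). Tgm3 higher and Sbsn lower were called in all 3 of these fits. The share of all genes called in each of these fits was not set beside these counts. With edgeR on all libraries, the share of these genes called was below the background in each comparison with TD. At an unadjusted p under 0.05 the counts were 13 of 47 in Strain, 15 in No Strain and 18 over both patches, where 29.5%, 33.5% and 38% of all genes reached it. Their median log2 fold change was −0.20 in Strain, −0.40 in No Strain and −0.30 over both patches, beside 0.02, 0.00 and 0.01 for all genes. Libraries of the compared groups did not overlap for 4 of 47 genes (8.51%) in Strain against TD, where 14.6% of all genes did not, for 13 of 47 (27.7%) in No Strain against TD, where 26.7% did not, and for 2 of 47 (4.26%) in patches against TD, where 11% did not.

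In the wounds with a patch, these genes lay far apart between libraries of the same group. Some genes outside the set did so too. Within Strain, Lce3b ran from 0.973 to 123 CPM and the neutrophil marker S100a8 from 284 to 3634 CPM. The SD of log2 CPM within a group had a median over these genes of 0.363 in TD, 1.08 in Strain and 1.09 in No Strain, where all genes tested had medians of 0.188, 0.222 and 0.188. In Strain and in No Strain all 47 genes lay above that all-gene median, and 26 and 33 of them lay above the 95th percentile of all genes; in TD 41 lay above the median and 8 above the 95th percentile. Strain 1 was the highest of its group for 29 of 47 genes, No Strain 1 for 40, and No Strain 3 was the lowest of its group for 35.

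Each patch library had its own mixture of genes outside the range of the 5 TD libraries. Strain 1 had 22 genes above every TD library and 12 below, and No Strain 1 had 23 above and 7 below. Strain 2 had 16 above and 24 below, and No Strain 3 had 9 above and 33 below. Strain 4 had 3 above and 32 below, and No Strain 2 had 9 above and 16 below. Strain 3 lay closest to TD, with 5 above, 11 below and 31 inside the TD range. The share outside the TD range was 72.3%, 85.1%, 34.0% and 74.5% of these genes in Strain 1 to 4, where 53.0%, 60.9%, 46.1% and 53.7% of all genes lay outside. It was 63.8%, 53.2% and 89.4% in No Strain 1 to 3, where 58.5%, 51.6% and 60.7% of all genes did. No Strain 1 and No Strain 2 were near the share of all genes. The heat map of levels against the TD mean shows these mixtures gene by gene.

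**Figure D1:**
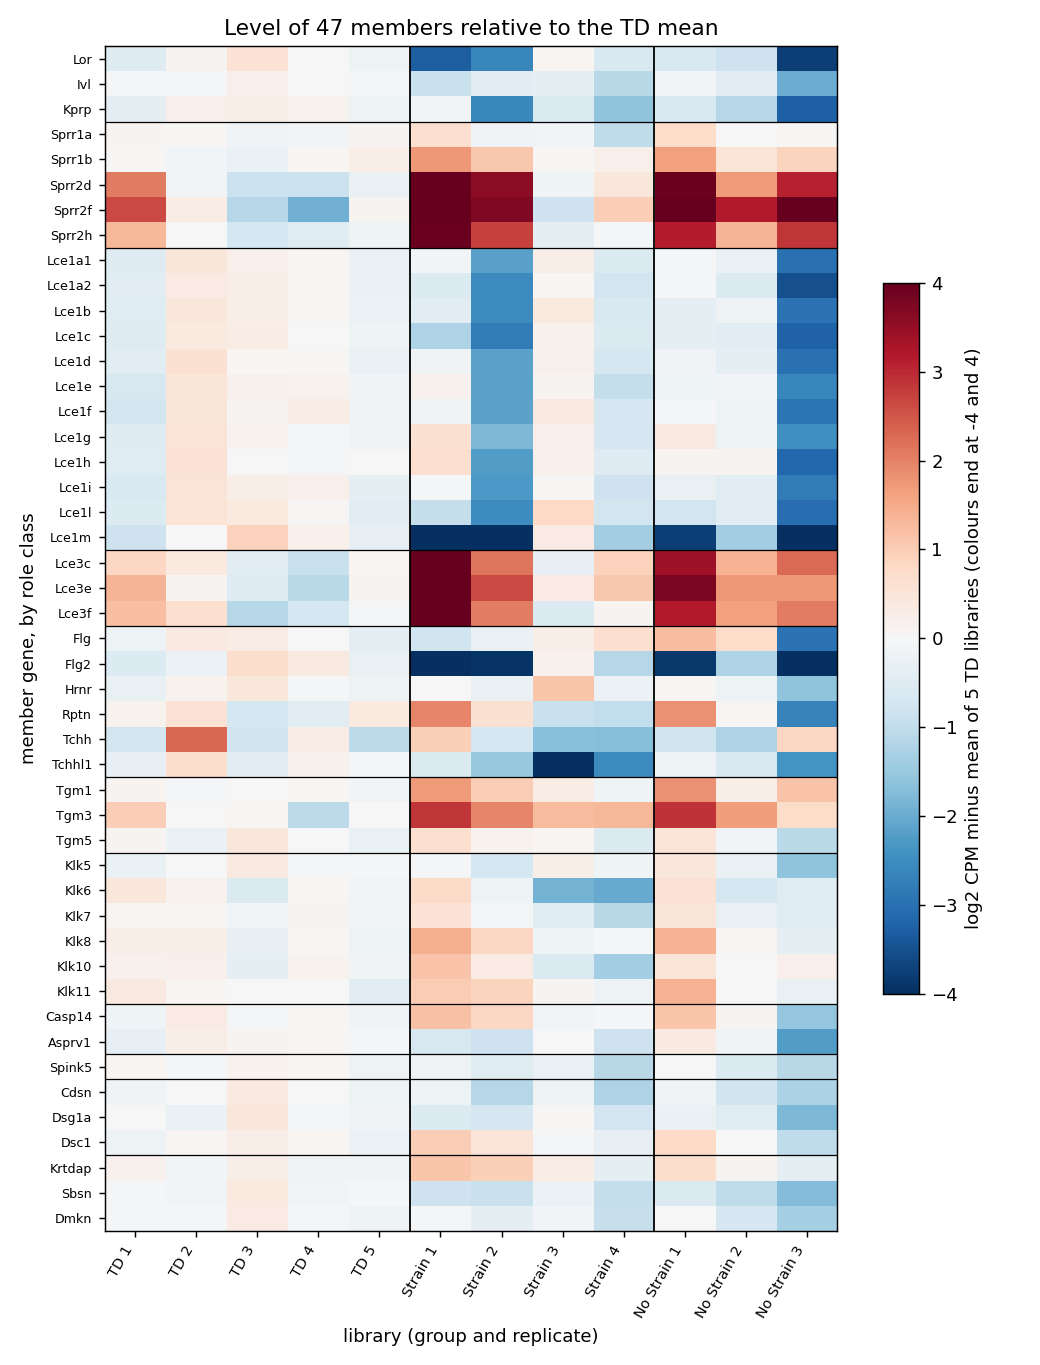
Log2 CPM of each of the 47 genes in each of the 12 libraries, minus the mean of the 5 TD libraries, with genes in rows grouped by role and libraries in columns. SPRR2 and LCE3 rows are above TD in Strain 1, Strain 2 and No Strain 1 to 3, while LCE1 rows are furthest below TD in Strain 2 and No Strain 3.

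Markers of other cell states and cells varied between the same libraries. The summed level of 8 neutrophil markers was 485 to 1694 CPM in TD, 8735, 5811, 911 and 1519 CPM in Strain 1 to 4 and 5204, 2122 and 4309.9 CPM in No Strain 1 to 3; 7 of the 8 rose in patches against TD. S100a8 and S100a9 gave most of that sum, and activated keratinocytes also make both. The 6 wound-activated keratinocyte markers summed to 2592 to 3914 CPM in TD, to 10314, 6573, 3591 and 3585 CPM in Strain and to 10863, 3422 and 5191 CPM in No Strain. Over both patches 4 of the 6 rose, Krt6b, Krt16, Defb3 and Slpi. Of 9 basal keratinocyte markers 5 fell, Krt15, Col17a1, Itgb4, Lamb3 and Dst, and none rose. Of 6 suprabasal markers only Krt2 passed, and it fell. Among hair markers tested, 3 of 5 of the inner root sheath and 2 of 3 of the hair shaft fell. Skeletal muscle markers summed to 6599 to 16173 CPM in TD, 3109 to 5963 CPM in Strain and 4548 to 9879 CPM in No Strain, and 5 of 11 tested fell. All 8 adipocyte markers fell, from 526 to 1543 CPM in TD to 298 to 538 CPM in Strain and 214 to 292 CPM in No Strain. The part of these lists in the results below was not tested, beyond fits with a list as covariate, given with the limits.

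**Figure D2:**
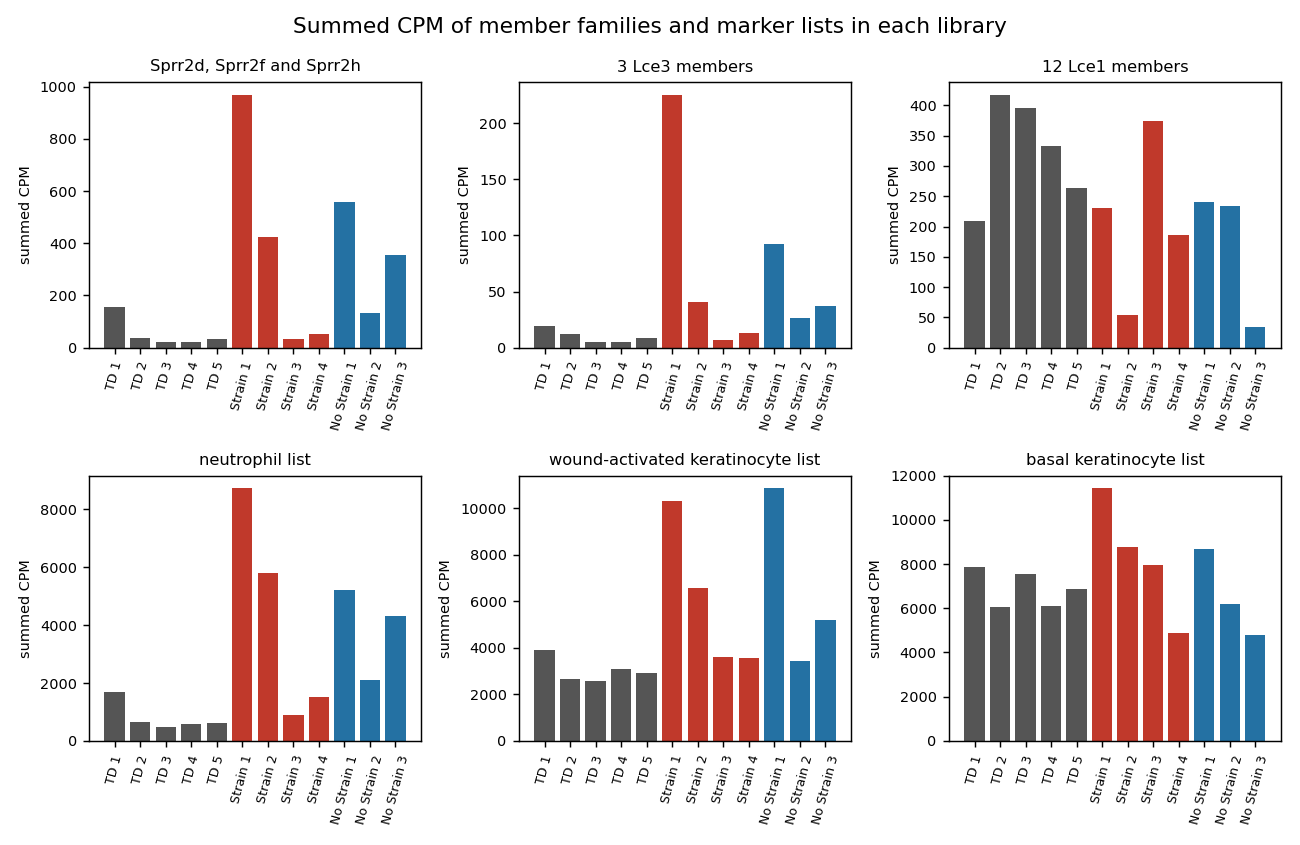
Summed CPM in each of the 12 libraries (bars from 0) of Sprr2d, Sprr2f and Sprr2h, of the 3 LCE3 genes, of the 12 LCE1 genes and of 3 marker lists. The SPRR2, LCE3, neutrophil and wound-activated keratinocyte sums are highest in Strain 1 or No Strain 1, while the LCE1 sum is lowest in Strain 2 and No Strain 3.

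Of the early scaffold and main envelope proteins, none of Lor, Ivl and Kprp passed edgeR's test in any comparison, and all 3 had negative estimates in each comparison with TD. Lor, which encodes loricrin, the most abundant envelope protein, stood at 664, 1020.5, 1436, 965 and 832 CPM in TD 1 to 5, at 97.4, 155, 1009.6 and 624 CPM in Strain 1 to 4 and at 628, 531 and 70.5 CPM in No Strain 1 to 3. Strain 1, Strain 2 and No Strain 3 were at or below 155 CPM, Strain 4, No Strain 1 and No Strain 2 were also below every TD library, and Strain 3 lay inside the TD range. The estimate was −1.06 (SE 0.706, edgeR adjusted p = 0.347) in Strain and −1.26 (SE 0.788, edgeR adjusted p = 0.292) in No Strain. Ivl, which encodes involucrin, the scaffold laid down first, was at 42.9 to 52.1 CPM in TD and at 11.4 to 41.9 CPM in the 7 patch libraries, with no overlap, yet the estimate for both patches was −0.66 (SE 0.253, edgeR adjusted p = 0.0769). Kprp, a keratinocyte proline-rich protein, was at 57.5 to 89.0 CPM in TD and 7.71 to 69.4 CPM with a patch. The ratio of Lor to Ivl counts was 15.2 to 27.6 in TD, 4.02, 4.65, 28.7 and 29.8 in Strain and 15.0, 15.6 and 6.17 in No Strain, so both genes did not vary in step between libraries. Over both patches, DESeq2 and limma-voom both called Ivl and Kprp lower, and edgeR called Ivl lower in Strain when only Strain and TD were fitted.

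Among the small proline-rich proteins, which bridge other envelope proteins, 3 of 5 rose with a patch, Sprr1b, Sprr2f and Sprr2h. Among those of the 47 genes that were detected in all 12 libraries, Sprr2f had the widest range between libraries, 409.9-fold. Sprr2f (chr3:92365187-92366442, plus strand) stood at 8.64, 1.64, 0.558, 0.283 and 1.45 CPM in TD 1 to 5, at 116, 18.4, 0.701 and 2.68 CPM in Strain 1 to 4 and at 34.4, 12.7 and 42.2 CPM in No Strain 1 to 3. All 3 No Strain libraries, Strain 1 and Strain 2 were above every TD library, while Strain 3 and Strain 4 lay inside the TD range. The means were 2.51 ± 3.47 CPM (SD, n = 5) under TD alone, 34.4 ± 54.9 CPM (SD, n = 4) in Strain, and 29.8 ± 15.3 CPM (SD, n = 3) without strain. Sprr2f rose by 3.67 (SE 1.21, edgeR adjusted p = 0.0471) over both patches, with 3.77 (SE 1.28, edgeR adjusted p = 0.0749) in Strain alone and 3.56 (SE 1.32, edgeR adjusted p = 0.0833) in No Strain alone.

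Sprr2h (chr3:92385685-92387324, plus strand) stood at 22.8, 8.91, 5.501, 6.42 and 7.98 CPM in TD 1 to 5, at 142, 60.5, 6.93 and 8.44 CPM in Strain 1 to 4 and at 80.5, 23.3 and 66.0 CPM in No Strain 1 to 3. The order of libraries was close to that of Sprr2f, with Strain 1 highest and Strain 3 and Strain 4 inside the TD range. It rose by 2.42 (SE 0.771, edgeR adjusted p = 0.0411) over both patches. Sprr2d, the most abundant of the family, stood at 125, 27.2, 16.0, 16.2 and 24.2 CPM in TD 1 to 5, at 711, 347, 25.8 and 39.9 CPM in Strain 1 to 4 and at 442, 95.3 and 247 CPM in No Strain 1 to 3. TD 1 stood above the other TD libraries and above Strain 3, Strain 4 and No Strain 2, and the estimate over both patches was 2.70 (SE 0.923, edgeR adjusted p = 0.0529), short of the threshold. Sprr1b (chr3:92436809-92438789, minus strand) stood at 59.7, 53.8, 48.3, 60.7 and 69.6 CPM in TD 1 to 5, at 192, 122, 59.997 and 67.1 CPM in Strain 1 to 4 and at 181, 82.3 and 107 CPM in No Strain 1 to 3. Every No Strain library was above every TD library, Strain 3 and Strain 4 were not, and Sprr1b rose by 1.00 (SE 0.297, edgeR adjusted p = 0.0316) over both patches. Sprr1a, which lies nearby, was at 95.6 to 114 CPM in TD and 51.8 to 175 CPM with a patch. Its estimate over both patches was 0.14 (SE 0.238, edgeR adjusted p = 0.7102). The SPRR2, neutrophil and wound-activated keratinocyte sums were highest in the same libraries, Strain 1, Strain 2, No Strain 1 and No Strain 3. Most of the neutrophil sum came from S100a8 and S100a9. The mean log2 CPM of the neutrophil list was 6.57, 6.71, 5.67 and 6.25 in Strain 1 to 4. It was 6.62, 6.73 and 7.47 in No Strain 1 to 3. By this measure No Strain 2 was above Strain 1, Strain 2 and No Strain 1. The part of either marker list in the SPRR2 levels was not tested.

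**Figure D3:**
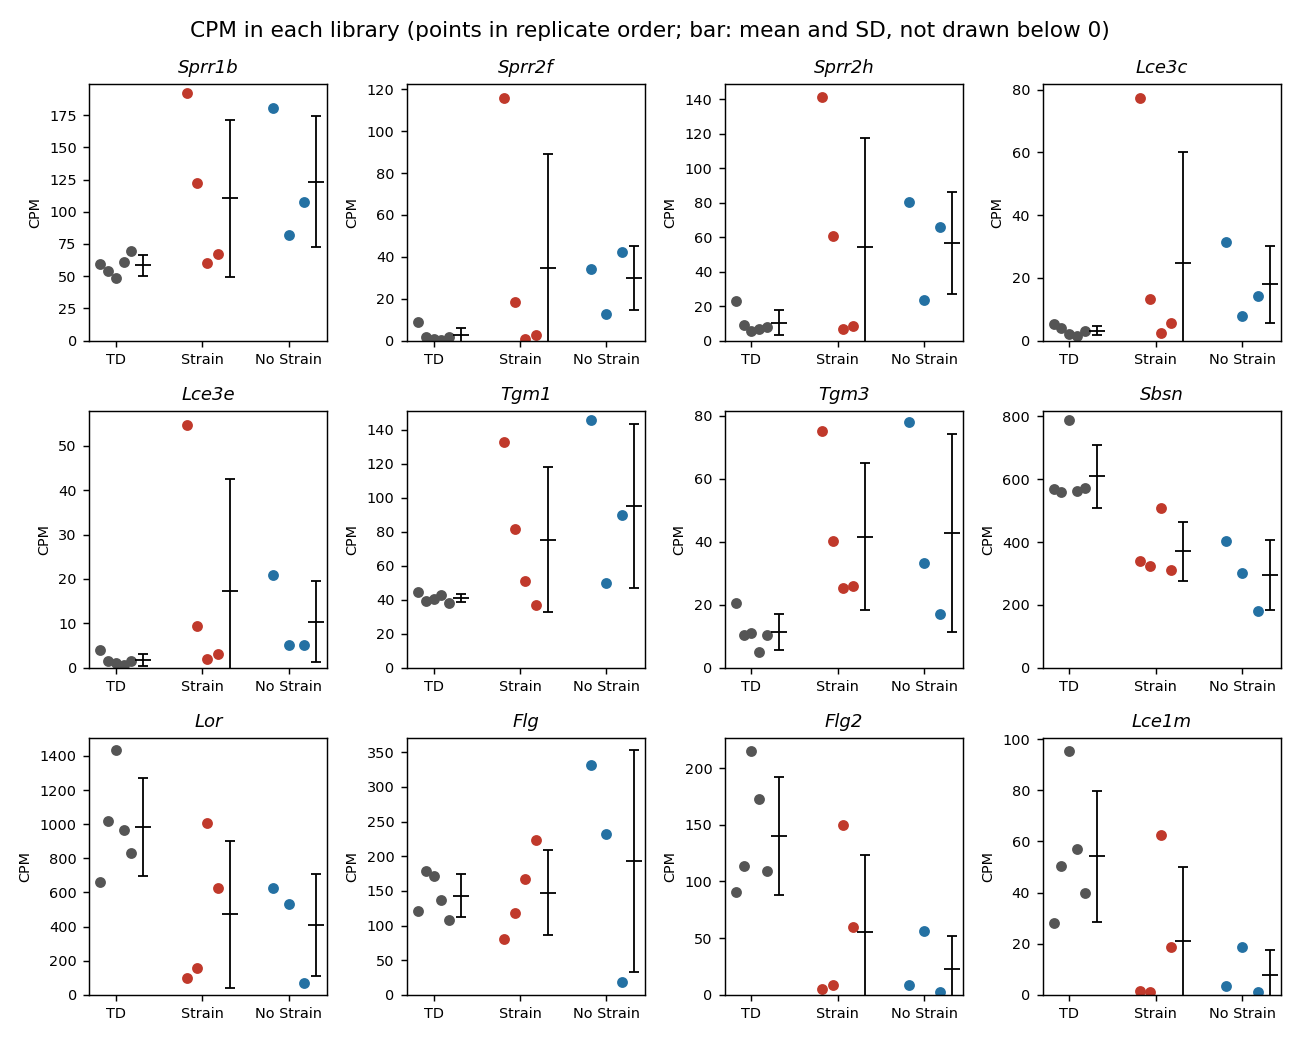
CPM of 12 genes in each of the 12 libraries, by group, with points in replicate order and a bar for the mean and SD (not drawn below 0) of 5, 4 and 3 libraries. On this CPM scale the points of Sprr2f and Lce3e spread more widely in both patch groups than in TD. By the SD of log2 CPM, Sprr2f spread less in No Strain (0.923) than in TD (1.73). All 4 Strain points of Tgm3 and all 7 patch points of Sbsn lie outside the TD range.

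The late cornified envelope genes sit together on chromosome 3, 15 of them between 92646535 and 93019060, and their groups had estimates of opposite sign. Of the 3 LCE3 genes, Lce3c and Lce3e rose over both patches and all 3 estimates were positive in every comparison with TD. Lce3e (chr3:92967061-92968281, plus strand) stood at 3.91, 1.60, 0.997, 0.646 and 1.58 CPM in TD 1 to 5, at 54.8, 9.50, 1.87 and 3.16 CPM in Strain 1 to 4 and at 20.9, 5.06 and 5.06 CPM in No Strain 1 to 3. Strain 1 held the highest level, No Strain 1 to 3 and Strain 2 were above every TD library, and Strain 3 and Strain 4 lay inside the TD range. The means were 1.75 ± 1.27 CPM (SD, n = 5) under TD alone, 17.3 ± 25.2 CPM (SD, n = 4) in Strain, and 10.3 ± 9.13 CPM (SD, n = 3) without strain. Lce3e rose by 3.30 (SE 0.966, edgeR adjusted p = 0.0460) in Strain and by 2.93 (SE 0.902, edgeR adjusted p = 0.0360) over both patches, and its estimate in No Strain was 2.56 (SE 1.00, edgeR adjusted p = 0.0994).

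Lce3c (chr3:92944486-92945733, plus strand) stood at 5.27, 3.86, 2.11, 1.53 and 3.07 CPM in TD 1 to 5, at 77.5, 13.1, 2.30 and 5.51 CPM in Strain 1 to 4 and at 31.5, 7.72 and 14.4 CPM in No Strain 1 to 3. Strain 3 alone lay inside the TD range. Lce3c rose by 2.72 (SE 0.826, edgeR adjusted p = 0.0340) over both patches, with 2.95 (SE 0.885, edgeR adjusted p = 0.0502) in Strain alone. Lce3f, the most abundant of the 3, stood at 10.2, 7.03, 1.91, 2.66 and 4.21 CPM in TD 1 to 5, at 92.8, 18.3, 2.96 and 4.70 CPM in Strain 1 to 4 and at 40.3, 13.8 and 18.1 CPM in No Strain 1 to 3. Its groups overlapped in Strain 3 and Strain 4, and the estimate over both patches was 2.36 (SE 0.839, edgeR adjusted p = 0.0604). The LCE3 genes share sequence: 35.7% of the 50-base windows of Lce3c, 43.7% of Lce3e and 48.04% of Lce3f also occur in other genes, and how reads that match several genes were counted is not given in the sources used here, so their separate levels are uncertain.

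None of the 12 LCE1 genes passed edgeR's test, and all 12 estimates were negative in each comparison with TD. The medians were −0.50 in Strain, −0.80 in No Strain and −0.66 over both patches. Lce1m shared no 50-base windows with other genes. The rest shared 9.66% (Lce1l) to 27.1% (Lce1i), other LCE1 genes being among the partners. How reads that match several genes were counted is not given, so the signs may not be 12 separate measurements of LCE1 genes. Lce1a1, the most abundant of them, stood at 39.0, 79.1, 64.1, 59.5 and 46.6 CPM in TD 1 to 5, at 51.9, 12.2, 67.8 and 37.7 CPM in Strain 1 to 4 and at 54.3, 47.02 and 7.06 CPM in No Strain 1 to 3. Strain 2 and No Strain 3 were below every TD library, Strain 4 was just below, and the other patch libraries lay inside the TD range. Strain 2 and No Strain 3 also held the lowest LCE1 sums, 53.5 and 33.9 CPM, against 209 to 417 CPM in TD. Lce1m (chr3:93017810-93019060, minus strand), set apart from the other LCE1 genes beyond the LCE3 genes, stood at 28.2, 50.5, 95.3, 57.0 and 39.7 CPM in TD 1 to 5, at 1.54, 1.17, 62.4 and 18.9 CPM in Strain 1 to 4 and at 3.56, 18.9 and 1.21 CPM in No Strain 1 to 3. Strain 1, Strain 2, No Strain 1 and No Strain 3 held at most 3.56 CPM, and Strain 3 lay inside the TD range. Its estimate was −1.36 (SE 1.01, edgeR adjusted p = 0.399) in Strain and −2.77 (SE 1.22, edgeR adjusted p = 0.137) in No Strain. Lce1m was called lower over both patches by limma-voom and by edgeR without Strain 3, and in No Strain by edgeR when only No Strain and TD were fitted.

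Lce1m did not follow the other LCE1 genes between libraries. It made up 12.1% to 24.1% of LCE1 counts in TD, 16.7% in Strain 3 and 10.2% in Strain 4, but 0.669% in Strain 1, 2.19% in Strain 2 and 1.48%, 8.10% and 3.57% in No Strain 1 to 3. In Strain 1 and No Strain 1 the other 11 LCE1 genes summed to 229 and 236 CPM, inside the TD range of 181 to 367 CPM. The ratio of LCE3 to LCE1 counts was 0.0127 to 0.0925 in TD, 0.977, 0.765, 0.0190 and 0.0722 in Strain and 0.387, 0.114 and 1.11 in No Strain; Strain 3 and Strain 4 lay inside the TD range and the other 5 patch libraries above it. These ratios were chosen after their values were seen and carry no test. The plot in gene order shows the LCE3 genes above TD next to Lce1m and Flg2 below it: in Strain 1 the level relative to the TD mean was 4.39 for Lce3f, −4.94 for Lce1m and −4.71 for Flg2 on the log2 scale, and in No Strain 1 it was 3.19, −3.78 and −3.86.

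**Figure D4:**
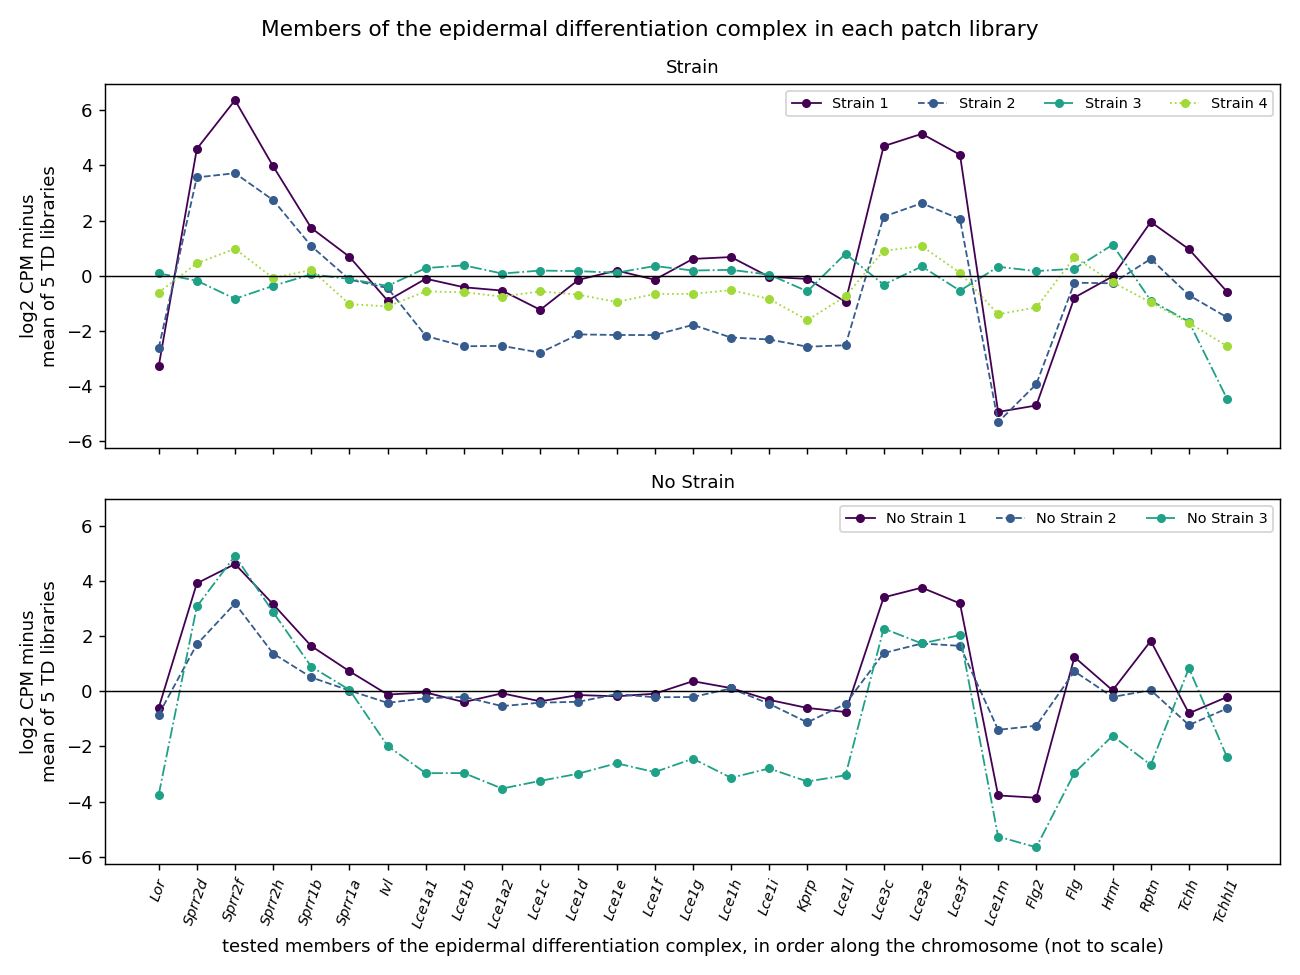
Log2 CPM minus the mean of the 5 TD libraries (vertical axis) of 29 genes of the epidermal differentiation complex in order along chromosome 3 (horizontal axis, not to scale), with a line for each of the 4 Strain (top) and 3 No Strain (bottom) libraries. The SPRR2 and LCE3 genes form peaks in Strain 1, Strain 2 and No Strain 1 to 3, and Lce1m and Flg2 form a trough right beside the LCE3 peak, while the line of Strain 3 stays near 0 through all of them.

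Of the 6 S100-fused proteins, whose repeats end up in the keratin matrix of dead cells, none passed edgeR's test in any comparison. Rptn, which encodes repetin and was the most abundant, stood at 163, 224, 90.8, 110.0 and 196 CPM in TD 1 to 5, at 573, 226, 79.3 and 75.7 CPM in Strain 1 to 4 and at 526, 153 and 23.2 CPM in No Strain 1 to 3. Strain 1, Strain 2 and No Strain 1 were above the TD range, Strain 2 only just, and Strain 3, Strain 4 and No Strain 3 were below it, so the estimates of 0.61 (SE 0.769, edgeR adjusted p = 0.643) and 0.58 (SE 0.8293, edgeR adjusted p = 0.668) average libraries on both sides of TD. Flg, which encodes profilaggrin, the precursor of filaggrin, stood at 121, 178, 171, 138 and 107 CPM in TD 1 to 5, at 81.1, 118, 167 and 223 CPM in Strain 1 to 4 and at 332, 232 and 17.98 CPM in No Strain 1 to 3. Flg was above the TD range in No Strain 1, No Strain 2 and Strain 4 and below it in Strain 1 and No Strain 3, and its estimates were 0.04 (SE 0.576, edgeR adjusted p = 0.970) in Strain and 0.44 (SE 0.621, edgeR adjusted p = 0.665) in No Strain.

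Flg2, the neighbouring gene for filaggrin-2, stood at 90.5, 114, 215, 173 and 109.5 CPM in TD 1 to 5, at 5.02, 8.64, 149 and 59.9 CPM in Strain 1 to 4 and at 9.09, 56.0 and 2.56 CPM in No Strain 1 to 3. Strain 3 alone lay inside the TD range, and the other 6 patch libraries lay below it. Its estimates were −1.33 (SE 0.960, edgeR adjusted p = 0.386) in Strain and −2.63 (SE 1.15, edgeR adjusted p = 0.134) in No Strain. Limma-voom called Flg2 lower over both patches, as edgeR did without Strain 3 or without No Strain 2. Flg and Flg2 parted between libraries: the ratio of Flg to Flg2 counts was 0.795 to 1.57 in TD, 16.2, 13.6, 1.12 and 3.73 in Strain and 36.5, 4.14 and 7.04 in No Strain. Both genes and their ratio were picked after their values were seen, and the ratio carries no test. Hrnr, which encodes hornerin, stood at 59.0, 80.4, 100.4, 69.7 and 62.8 CPM in TD 1 to 5, at 71.7, 60.4, 159 and 62.0 CPM in Strain 1 to 4 and at 74.8, 63.3 and 23.8 CPM in No Strain 1 to 3. Strain 3 was highest and No Strain 3 lowest, and all other libraries lay between them.

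Tchh, which encodes trichohyalin, a protein of the hair inner root sheath, stood at 9.96, 81.6, 9.53, 20.6 and 7.98 CPM in TD 1 to 5, at 32.5, 10.2, 5.18 and 5.03 CPM in Strain 1 to 4 and at 9.54, 7.08 and 29.8 CPM in No Strain 1 to 3. TD 2, the highest, also had the highest inner root sheath sum, 113 CPM, where the other libraries had 0.540 to 25.5 CPM. In Strain 1 and No Strain 3, where Tchh was at 32.5 and 29.8 CPM, that sum was 4.77 and 1.21 CPM, so both Tchh levels stood beside a low sheath sum. Tchhl1, a trichohyalin-like gene and the lowest of the set per length, stood at 1.44, 3.04, 1.32, 2.06 and 1.71 CPM in TD 1 to 5, at 1.19, 0.585, 0 and 0.240 CPM in Strain 1 to 4 and at 1.58, 1.16 and 0.279 CPM in No Strain 1 to 3. All 4 Strain libraries were below every TD library, and the estimate was −1.96 (SE 0.699, edgeR adjusted p = 0.0879). It had 342 counts over all libraries. Tchhl1 was called lower in Strain by DESeq2 and over both patches by limma-voom.

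Of the 3 transglutaminases, the enzymes that cross-link the envelope, Tgm3 and Tgm1 rose and Tgm5 did not pass the test. Tgm3 (chr2:130012349-130050399, plus strand), a cytosolic enzyme that proteases switch on, stood at 20.5, 10.3, 11.0, 4.97 and 10.3 CPM in TD 1 to 5, at 75.1, 40.3, 25.3 and 26.0 CPM in Strain 1 to 4 and at 78.0, 33.4 and 17.2 CPM in No Strain 1 to 3. All 4 Strain libraries were above every TD library, as were No Strain 1 and No Strain 2, while No Strain 3 was below TD 1. The means were 11.4 ± 5.64 CPM (SD, n = 5) under TD alone, 41.7 ± 23.3 CPM (SD, n = 4) in Strain, and 42.9 ± 31.5 CPM (SD, n = 3) without strain. Tgm3 rose by 1.87 (SE 0.497, edgeR adjusted p = 0.0334) in Strain, by 1.91 (SE 0.526, edgeR adjusted p = 0.0300) in No Strain and by 1.89 (SE 0.459, edgeR adjusted p = 0.0136) over both patches. It was the only one of the 47 genes called in both comparisons of a patch with TD.

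Tgm1 (chr14:55700009-55713926, minus strand), the membrane-bound enzyme whose loss causes lamellar ichthyosis, stood at 44.3, 39.4, 40.6, 42.9 and 38.1 CPM in TD 1 to 5, at 133, 81.4, 50.9 and 36.7 CPM in Strain 1 to 4 and at 145, 49.6 and 90.0 CPM in No Strain 1 to 3. The 5 TD libraries lay within 38.1 to 44.3 CPM, all 3 No Strain libraries and Strain 1 to 3 were above them, and Strain 4 was below. Tgm1 rose by 1.21 (SE 0.379, edgeR adjusted p = 0.0475) in No Strain and by 1.04 (SE 0.320, edgeR adjusted p = 0.0359) over both patches, and its estimate in Strain was 0.87 (SE 0.355, edgeR adjusted p = 0.125). Tgm5 was at 21.9 to 35.6 CPM in TD and 12.4 to 41.9 CPM with a patch, with an estimate of 0.00 (SE 0.268, edgeR adjusted p = 0.995). The ratio of Tgm3 to Tgm5 counts, picked after its values were seen, was 0.192 to 0.732 in TD and 0.915 to 2.08 in the patch libraries, with no overlap and no test.

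None of the 6 kallikreins, the secreted serine proteases of desquamation, passed the test with edgeR, DESeq2 or limma-voom in any comparison. They lie within 76.6 kb on chromosome 7, from 43774604 to 43851181. Klk7, the chymotrypsin-like member and the most abundant, stood at 306, 295, 265, 311 and 268 CPM in TD 1 to 5, at 434, 279, 205 and 134 CPM in Strain 1 to 4 and at 400.1, 235 and 206 CPM in No Strain 1 to 3. TD libraries lay between 265 and 311 CPM, Strain 1 and No Strain 1 above them and Strain 3, Strain 4, No Strain 2 and No Strain 3 below. The estimates were −0.13 (SE 0.291, edgeR adjusted p = 0.798) in Strain and −0.04 (SE 0.317, edgeR adjusted p = 0.942) in No Strain. Klk5, the trypsin-like member that activates others, was at 28.1 to 43.2 CPM in TD and 10.9 to 46.4 CPM with a patch. Estimates over both patches ran from −0.27 for Klk6 to 0.59 for Klk8, of which 21.7% of the 50-base windows also occur in an antisense gene. The summed level of the 6 was 523 to 713 CPM in TD, 1041, 637, 391 and 285 CPM in Strain and 947, 493 and 461 CPM in No Strain.

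Spink5, which encodes the inhibitor of these kallikreins, and the proteases that process filaggrin gave no call with edgeR, DESeq2 or limma-voom on all libraries. EdgeR without No Strain 1 called Spink5 lower over both patches. Spink5 stood at 343, 315, 359.7, 338 and 287 CPM in TD 1 to 5, at 300.1, 233, 272 and 153 CPM in Strain 1 to 4 and at 332, 217 and 152 CPM in No Strain 1 to 3. Its estimate was −0.47 (SE 0.194, edgeR adjusted p = 0.0968) over both patches, with Strain 4 and No Strain 3 the lowest libraries. Asprv1, the aspartic protease that cuts profilaggrin, stood at 339, 513, 456, 442 and 402 CPM in TD 1 to 5, at 276, 242, 426 and 242 CPM in Strain 1 to 4 and at 544, 384 and 89.9 CPM in No Strain 1 to 3. No Strain 1 was above the TD range and Strain 1, Strain 2, Strain 4 and No Strain 3 below it, and the estimates were −0.54 (SE 0.389, edgeR adjusted p = 0.387) in Strain and −0.34 (SE 0.424, edgeR adjusted p = 0.612) in No Strain. Casp14, a caspase that degrades filaggrin, was at 90.4 to 129 CPM in TD and 34.8 to 233 CPM with a patch.

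The 3 corneodesmosome genes did not pass edgeR's test. Dsg1a, which encodes a desmoglein 1, stood at 322, 271, 445, 316 and 294 CPM in TD 1 to 5, at 222, 204, 332 and 192 CPM in Strain 1 to 4 and at 272, 233 and 93.2 CPM in No Strain 1 to 3. Strain 3 lay inside the TD range, No Strain 1 lay at its lower end, and the other patch libraries were below it. Its estimates were −0.47 (SE 0.282, edgeR adjusted p = 0.291) in Strain and −0.73 (SE 0.312, edgeR adjusted p = 0.130) in No Strain, and 35.0% of its 50-base windows also occur in its paralogs. Cdsn, which encodes corneodesmosin, was at 177 to 265 CPM in TD and 85.8 to 184 CPM with a patch, with −0.65 (SE 0.232, edgeR adjusted p = 0.0605) over both patches, where DESeq2 and limma-voom called it lower. EdgeR without Strain 3 called Cdsn and Dsg1a lower. Dsc1, which encodes desmocollin 1, had the opposite sign, at 119 to 169 CPM in TD and 69.0 to 277 CPM with a patch and an estimate of 0.23 (SE 0.296, edgeR adjusted p = 0.608).

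The secreted suprabasal proteins lie together within 39.6 kb on chromosome 7 and held Sbsn, the only one of the 47 genes that fell in edgeR's test on all libraries. Sbsn (chr7:30751471-30756134, plus strand), which encodes suprabasin, stood at 568, 558, 787, 561 and 571 CPM in TD 1 to 5, at 338, 323, 508 and 310.0 CPM in Strain 1 to 4 and at 403, 300.4 and 182 CPM in No Strain 1 to 3. All 7 patch libraries were below all 5 TD libraries, and No Strain 3 was the lowest. The means were 609 ± 99.8 CPM (SD, n = 5) under TD alone, 370.0 ± 92.8 CPM (SD, n = 4) in Strain, and 295 ± 111 CPM (SD, n = 3) without strain. Sbsn fell by 1.04 (SE 0.251, edgeR adjusted p = 0.0178) on the log2 scale in No Strain and by 0.88 (SE 0.193, edgeR adjusted p = 0.00835) over both patches, and its estimate in Strain was −0.72 (SE 0.225, edgeR adjusted p = 0.0571). The antisense gene Tmem147os overlaps it, at 6.96% of its 50-base windows.

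Dmkn, which encodes dermokine and had the highest mean CPM of the set, stood at 1048, 1069, 1402, 1062 and 987 CPM in TD 1 to 5, at 1071, 851, 1023 and 581 CPM in Strain 1 to 4 and at 1092, 697 and 442 CPM in No Strain 1 to 3. Strain 4, No Strain 2 and No Strain 3 were the lowest, and the estimates were −0.34 (SE 0.247, edgeR adjusted p = 0.393) in Strain and −0.58 (SE 0.272, edgeR adjusted p = 0.159) in No Strain. Krtdap, which encodes a keratinocyte differentiation-associated protein, stood at 429, 357, 446, 343 and 346 CPM in TD 1 to 5, at 824, 732, 468 and 297 CPM in Strain 1 to 4 and at 622, 413 and 298 CPM in No Strain 1 to 3. Strain 1, Strain 2, Strain 3 and No Strain 1 were above the TD range, and the estimate over both patches was 0.40 (SE 0.249, edgeR adjusted p = 0.264). Krtdap and Sbsn, which lie on either side of Dmkn, had unlike values. The ratio of their counts was 0.567 to 0.755 in TD. It was 2.44, 2.26, 0.921 and 0.958 in Strain and 1.54, 1.38 and 1.64 in No Strain, with no overlap between TD and patch libraries. This ratio was chosen after its values were seen and carries no test. Per kb of exon, Krtdap was the most abundant gene of the set, at 684 CPM per kb over all libraries, followed by Dmkn at 431, Lor at 376, Sprr2d at 259 and Asprv1 at 235, and Tchhl1 was the lowest at 0.589.

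**Figure D5:**
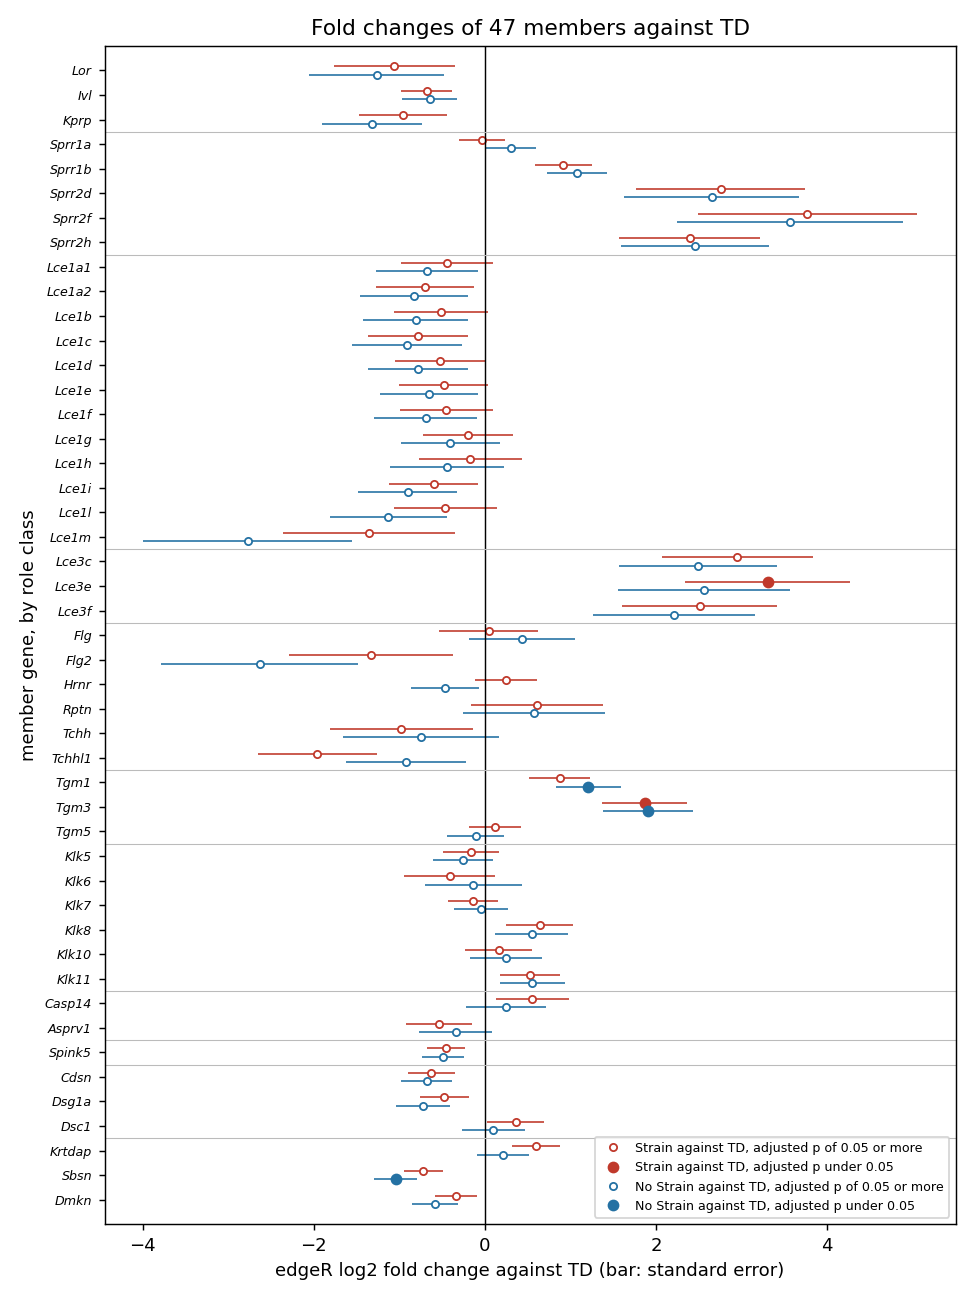
Log2 fold change against TD (edgeR, bars for the standard error) of each of the 47 genes, ordered by role, in Strain and in No Strain, with filled points for adjusted p under 0.05. Filled points are Lce3e and Tgm3 in Strain and Tgm1, Tgm3 and Sbsn in No Strain.

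The comparison of Strain with No Strain asks what the strain added to the patch. None of the 47 genes passed edgeR's test or DESeq2's, none reached an unadjusted p under 0.05 in edgeR, and the smallest adjusted p was 0.881; over all genes tested 5.61% reached an unadjusted p under 0.05, DESeq2 called 33 genes, and no member's groups failed to overlap, where 5.62% of all genes did not. The median difference over the 47 was 0.20 on the log2 scale, higher in Strain, beside 0.01 for all genes, and 33 of 47 estimates were positive. The genes with the smallest p were Hrnr, with 0.71 (SE 0.415, edgeR adjusted p = 0.881), Tchhl1, with −1.04 (SE 0.800, edgeR adjusted p = 0.914), Sbsn, with 0.33 (SE 0.254, edgeR adjusted p = 0.914), and Lce1m, with 1.42 (SE 1.19, edgeR adjusted p = 0.923). Lce1m turned to −0.15 without Strain 3. For Tgm3 the difference was −0.04 (SE 0.552, edgeR adjusted p = 0.998). A p that misses the threshold does not show that both patches act alike.

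Other genes of the same process were read from lists of envelope and desquamation genes, barrier lipid genes and differentiation regulators. Of 38 other envelope and desquamation genes tested, 6 rose over both patches, Sprr2g, Lce3a, Lce3d, Cnfn, Csta1 and Serpinb3a, 1 fell, Scel, and 31 did not pass. The share called was 18.4%, against 24.4% of all genes. Serpinb3a, a protease inhibitor of the serpin family, rose by 3.55 (SE 0.837, edgeR adjusted p = 0.0227) in Strain and by 3.24 (SE 0.861, edgeR adjusted p = 0.0263) in No Strain. Csta1, which encodes an inhibitor of cysteine proteases of the stefin A family, rose by 1.78 (SE 0.430, edgeR adjusted p = 0.0243) and 1.501 (SE 0.454, edgeR adjusted p = 0.0425). Scel, which encodes the envelope protein sciellin, fell by 1.19 (SE 0.287, edgeR adjusted p = 0.0181) on the log2 scale in No Strain. Ctsl, a cathepsin, was the most abundant of the list.

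Among the barrier lipid genes, Ugcg and Asah1 rose over both patches, none fell and 17 did not pass. The share of this list called lay below the 24.4% of all genes. Elovl4, which extends very long fatty acids, was the most abundant. Ugcg, which makes glucosylceramide, rose by 0.50 (SE 0.0872, edgeR adjusted p = 0.00791) in Strain and by 0.57 (SE 0.0940, edgeR adjusted p = 0.00399) in No Strain. Of 20 differentiation regulators, Prdm1, Cebpb, Nfe2l2 and Ppard rose, Gata3 and Notch1 fell and 14 did not pass, a share called of 30% against 24.4% of all genes; Klf4 was the most abundant. Prdm1, which encodes the repressor Blimp-1, rose by 0.64 (SE 0.168, edgeR adjusted p = 0.0313) in Strain and by 1.03 (SE 0.180, edgeR adjusted p = 0.00511) in No Strain. Gata3, a transcription factor of epidermal differentiation, fell by 1.46 (SE 0.325, edgeR adjusted p = 0.0132) on the log2 scale in No Strain. Several of these genes are known to be expressed by other cells of a wound as well.

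The calls differ in how much they rest on single libraries and on the title letter. Tgm3 and Sbsn over both patches were called in all 12 fits that left out 1 library, with the highest edgeR adjusted p at 0.0355 and 0.0240. Over both patches, the calls of Lce3c and Lce3e held in 7 of 12 such fits, Sprr1b in 6, Sprr2h and Tgm1 in 4 and Sprr2f in 3, with the highest adjusted p at 0.0800, 0.0843, 0.0774, 0.0943, 0.0817 and 0.103. In Strain against TD, Tgm3 was lost without any of TD 2 to 5, Strain 1 or Strain 2 (up to 0.0897) and Lce3e held in 3 of 12 (up to 0.215). In No Strain against TD, Sbsn was lost only without No Strain 3 (0.0540), Tgm3 without any of TD 2 to 5 or No Strain 1 (up to 0.176), and Tgm1 held in 4 of 12 (up to 0.231). With the title letter as a covariate, Tgm3 and Sbsn were the only calls over both patches (edgeR adjusted p = 0.0353 and 0.0246) and in No Strain (0.0495 and 0.0253). The other 6 calls over both patches were lost, with estimates of the same sign and adjusted p from 0.0771 for Tgm1 to 0.110 for Sprr2h. Also lost were Lce3e and Tgm3 in Strain (0.188 and 0.102) and Tgm1 in No Strain (0.0751). With the level of skeletal muscle markers or of basal keratinocyte markers as a covariate, none of the 47 genes was called in any comparison. For Tgm3 over both patches the estimate was then 1.43 and 2.73, with edgeR adjusted p of 0.393 and 0.0698. For Sbsn it was −0.65 and −0.33, with 0.297 and 0.404. Both covariates moved with the groups. Mean log2 CPM of the muscle list was 7.75 to 9.09 in TD, 6.83 to 7.66 in Strain and 7.38 to 8.33 in No Strain. For the basal list it was 8.23 to 8.71, 7.75 to 8.40 and 7.55 to 8.03. These fits therefore cannot tell the level of a list apart from the patch.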

How the data were processed

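Poly(A) RNA of 12 wounds was sequenced, 5 TD, 4 Strain and 3 No Strain, grouped by the group label. Per the file headers, the authors deposited unnormalized counts for each gene, in 1 table per library. The submitters' processing notes name bcl2fastq 2.17, FastQC, cutadapt, STAR, featureCounts, DESeq2 and the build GRCm38, without role or order; the annotation release, the strand setting and the handling of reads that match several genes are not given in the sources used here, so genes with close copies or antisense partners are uncertain. Per the labels' protocols, libraries were made with the NEBNext Ultra RNA kit, and no strand setting is stated.

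From the deposited counts, edgeR 4.0.16 (R 4.3.3) was run on all 12 libraries with TMM scaling, its filter on low counts (minimum count 10, minimum total 15), robust quasi-likelihood fits and Benjamini-Hochberg adjustment over the 18618 genes tested. CPM were computed from TMM-scaled totals, and log2 CPM with a prior count of 2. Of 54232 identifiers, 54165 matched GENCODE M21. Per-length levels are CPM per kb of merged exons. Shared sequence was counted as 50-base windows found in transcripts of another gene. The fit was tested on simulated data. DESeq2 1.42.0 and limma 3.58.1 were alternatives.

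Totals of 20354677 to 25059371 counts limit precision through counting error, which is small beside the spread between replicates. Members and lists were chosen with earlier results of these data known. Genes given in full were those called in any comparison, the most abundant of each role and the 4 with the smallest p between Strain and No Strain; others named with full values were chosen after their values were seen. Alternatives were other scaling, no filter, no robust weights, only the groups compared, the title letter or a marker list as covariate, other tools, and leaving out each library. The result of a barrier lipid gene is not reported here.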

Additional observations from a re-analysis of the deposited data

Results flagged for a closer look

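In groups of 4 and 5 libraries, 94 sets of log2 CPM values (47 genes in TD and in Strain) were screened for a single library far from the rest of its group, a screen that by chance picks about 1 in 20, or 4.7 of 94. It picked 3, all in TD. Sprr2d stood at 6.96 log2 CPM in TD 1, where the next TD library was at 4.77; TD 1 also had the highest neutrophil and wound-activated keratinocyte sums of the TD group, 1694 and 3914 CPM. Sbsn stood at 9.62 in TD 3, where the next was at 9.16, and Dmkn, its neighbour on chromosome 7, at 10.45 in TD 3, where the next was at 10.06. Without TD 3, Sbsn in patches against TD was −0.78, with an edgeR adjusted p of 0.0240, where all libraries gave −0.88. The No Strain group, with 3 libraries, was not screened.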

How the results depend on the processing

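Between Strain and No Strain the count of genes called was 0 under all 22 alternatives. In Strain against TD, where 2 genes were called, no filter on low counts, the title letter, the skeletal muscle list and the basal keratinocyte list as covariates each gave 0, limma-voom gave 1 and DESeq2 gave 10. In No Strain against TD, where 3 were called, the counts were 1 with no filter, 11 when only the groups compared were fitted, 0 with the muscle list, 0 with the basal list and 7 with DESeq2. Over both patches, where 8 were called, they were 2 with no filter, 2 with the title letter, 0 with the muscle list, 0 with the basal list and 13 with DESeq2 (9 higher, 4 lower). Limma-voom called 9 over both patches, a like number but 2 higher and 7 lower where edgeR called 7 higher and 1 lower; Sprr2f, Sprr2h, Lce3c, Lce3e and Tgm1 were lost. The other scalings and no robust weights kept each count within 1.5 times. The share of all genes called under each alternative was not set beside these counts. The muscle and basal lists moved with the groups, so fits with them cannot tell list and patch apart.

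Leaving out 1 library gave 0 to 9 calls in Strain against TD: 0 without any of TD 2 to 5 or Strain 2, 1 without Strain 1 or No Strain 2, 4 without Strain 4 and 9 without Strain 3. It gave 1 to 9 in No Strain against TD: 1 without any of TD 2 to 5 or No Strain 3, 5 without No Strain 2, 6 without Strain 3 and 9 without Strain 1. Over both patches it gave 2 to 14: 2 without any of TD 2 to 4, 3 without TD 5, 4 without Strain 2 and 14 without Strain 3. These counts stand without the share of all genes called in the same fit. They do not show whether these genes moved apart from all genes. The cause was not tested.

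Of 828 values of single genes under the alternatives, 673 kept their direction and side of the threshold, 124 lost a call, 10 gained one and 21 changed sign; none of the genes called in that comparison changed sign. With the basal keratinocyte list as covariate, the log2 fold change in Strain against TD became 0.11 for Dsg1a, 0.18 for Klk7, 0.032 for Lce1a1 and 0.12 for Dmkn, and in No Strain against TD 0.22 for Dsg1a, 0.36 for Asprv1, 0.25 for Spink5, 0.55 for Klk7, 0.14 for Lce1a1 and 0.21 for Dmkn. With the muscle list it became −0.016 for Lce3f and −1.58 for Rptn in Strain and −0.33 for Rptn in No Strain, and limma-voom gave −0.18 for Rptn in No Strain. With 1 library left out, Lce1m in Strain against No Strain ran from −0.15 to 3.15, Klk7 from −0.49 to 0.084 in Strain and from −0.39 to 0.14 in No Strain, Rptn from −0.30 to 0.90 in Strain and from −0.83 to 1.11 in No Strain, and Asprv1 from −0.86 to 0.11 in No Strain.

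No paired analysis was possible because the groups share no replicate numbers in the titles. Groups of 3 to 5 libraries limit what can be called for genes that vary this much within a group; depth limits Tchhl1, with 342 counts in all.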

Other observations

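The 7 patch libraries carry title numbers from 7 to 15. Taken by title number, the summed level of Sprr2d, Sprr2f and Sprr2h was 969 CPM in Strain 1 (number 7), 426 CPM in Strain 2, 557 CPM in No Strain 1, 131 CPM in No Strain 2, 355 CPM in No Strain 3, 33.4 CPM in Strain 3 and 51.0 CPM in Strain 4 (number 15). The meaning of these numbers is not given, and no relation with them was tested.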
